A study of Mus musculus with 45 samples.

Results

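The 10 genes described here encode apolipoproteins and the machinery that builds chylomicrons, and their RNA was measured in sorted small intestinal tuft cells of mice on 2 diets.

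The members were chosen by name: Apob, Mttp, Apoa4, Apoa1, Apoc3, Apoc2, Apoe, Mogat2, Dgat1 and Dgat2, which are 10 of the 47729 genes in the deposited tables. All 10 were among the 14020 genes with enough reads to be tested. Each of the 45 libraries was bulk RNA from the sorted EpCAM+CD45+ Siglec-F+ cells of 1 male C57BL/6J mouse kept at thermoneutrality. The mice, which carried no engineered allele, ate either a reference diet (RFD) with 10% of energy from fat or a high fat diet (HFD) with 60%. The set named STF (9 weeks) held 11 libraries on RFD and 11 on HFD, and the set named LTF (22 weeks) held 11 on RFD and 12 on HFD. The labels give 9 weeks of feeding for every library, and the 22 weeks of the LTF set come from the study's methods, so a difference between feeding times cannot be told apart from a difference between sets of libraries. The question addressed here is whether RNA of the chylomicron genes in these sorted cells differed between the diets.

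Absorptive enterocytes take up fatty acids and monoacylglycerol from the gut lumen, rebuild them into triglyceride at the endoplasmic reticulum and export them as chylomicrons, particles that carry a single molecule of apolipoprotein B and several smaller exchangeable apolipoproteins. Mogat2 and the Dgat enzymes make the triglyceride, Mttp loads it onto Apob, and the particle leaves through COPII vesicles. Tuft cells are chemosensory cells of the same epithelium that are not known for exporting fat, so enterocyte RNA in the sorted cells is a possible source of these transcripts, and the enterocyte markers are therefore given beside the results.

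The sort was checked against marker genes. The summed TPM (a level corrected for gene length and library size) of 15 tuft markers such as Dclk1 and Trpm5 had medians of 9490 (RFD) and 4270 (HFD) at 9 weeks and 12300 and 9970 at 22 weeks, and all 15 were detected. The lowest libraries were those of HFD mouse 80 at 9 weeks (53.6) and HFD mouse 6 at 22 weeks (463). All 20 enterocyte markers were also detected, with summed TPM from 482 to 4610 at 9 weeks and from 1370 to 13500 at 22 weeks. The 7 Paneth cell markers ranged from 149 to 398000 TPM in sum. Their medians were 10200 (RFD) and 75400 (HFD) at 9 weeks and 3580 and 39000 at 22 weeks. Gene totals per library ran from 189340 to 4690213 reads, with 2 libraries under 500000, both at 9 weeks.

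Some of these genes are close neighbours. In GRCm38, with the GENCODE M21 annotation, Apoa1 (chr9:46228580-46230466, plus strand), Apoc3 (chr9:46232933-46235636, minus strand) and Apoa4 (chr9:46240696-46243459, plus strand) lie within 14880 bases. Apoc3 is 2466 bases from Apoa1 and 5059 bases from Apoa4. Apoc2 (chr7:19671579-19677941) and Apoe (chr7:19696109-19699188) share a cluster on the minus strand with 18167 bases between them. Dgat2 (chr7:99153658-99182719) and its relative Mogat2 (chr7:99219084-99238619) are 36364 bases apart on the minus strand. Apob (chr12:7977648-8016835, plus strand), Mttp (chr3:138089854-138144968, minus strand) and Dgat1 (chr15:76502015-76511953, minus strand) stand apart. Apoa4, Mttp and Mogat2 overlap genes on the opposite strand, and the Smart-seq2 libraries do not mark strand, so reads from the shared bases cannot be assigned. Trmt10a, the overlapping coding gene at Mttp, had a median of 1.21 TPM and at most 4.93. Apoc2 shares exons with Gm44805, a coding gene annotated on the same strand, and RSEM divides reads between such genes. Gm44805 was listed at 0 reads in all 45 libraries.

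Stretches just upstream of 3 of these genes are shown because the fitted log2 fold changes of these genes lay on both sides of 0. RefSeq (GRCm38.p6) promoters were at hand for 6 of the 10 genes. Each stretch ends 1 base before the gene's most upstream start, reads 5′ to 3′ on the gene's strand, and leaves out bases in exons of coding genes. Capitals mark AGGTCA, a motif that nuclear receptors bind.
Apoa1 upstream (chr9:46228380-46228579): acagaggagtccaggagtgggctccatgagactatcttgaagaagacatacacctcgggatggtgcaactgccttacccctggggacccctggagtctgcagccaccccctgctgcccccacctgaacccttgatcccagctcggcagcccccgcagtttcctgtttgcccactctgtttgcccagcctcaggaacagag
Apoa4 upstream (chr9:46240594-46240695): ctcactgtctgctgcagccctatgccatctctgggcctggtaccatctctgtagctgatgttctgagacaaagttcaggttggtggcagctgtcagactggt
Apoc2 upstream (chr7:19677942-19678082): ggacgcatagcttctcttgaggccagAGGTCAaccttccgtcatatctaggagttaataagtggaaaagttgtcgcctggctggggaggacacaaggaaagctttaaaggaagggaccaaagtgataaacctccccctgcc
The 250 bases before each RefSeq start were searched on both strands for AGGTCA and for the TATA box TATAAA, which do not overlap. Apoc2 held AGGTCA from position -115 counted from its start, a motif found in 14% of 32851 promoters. The windows of Apoa1 and Apoa4 held neither motif. Among the genes whose stretches are not shown, Apob held TATAAA from position -60 of its start at chr12:7977677. Apoe held it from -96, and on the other strand from -100, of a start at chr7:19698621. TATAAA was found in 12.4% of the 32851 promoters. The matches are a description of the sequence and were not tied to any measured binding.

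The level of the members differed widely among themselves. On RFD at 9 weeks the median TPM was 1876 for Apoa1, 717 for Apoa4, 291 for Apoc3 and 176 for Apoc2. The enzymes were lower, at 83.6 for Dgat1, 71.8 for Mogat2, 47.2 for Mttp and 19.3 for Dgat2. Apob was at 39.8 TPM and Apoe at 5.91. Neighbours in this order overlapped widely between libraries, for instance Dgat1 (51.8 to 147 TPM) and Mogat2 (20.9 to 114 TPM). On HFD Apoc2 stood above Apoc3 in the order, with medians of 329 against 139 TPM at 9 weeks and 997 against 431 TPM at 22 weeks. The 10 genes together took a median of 0.415% (RFD) and 0.439% (HFD) of a library's reads at 9 weeks and 0.824% and 1.05% at 22 weeks.

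**Figure D1:**
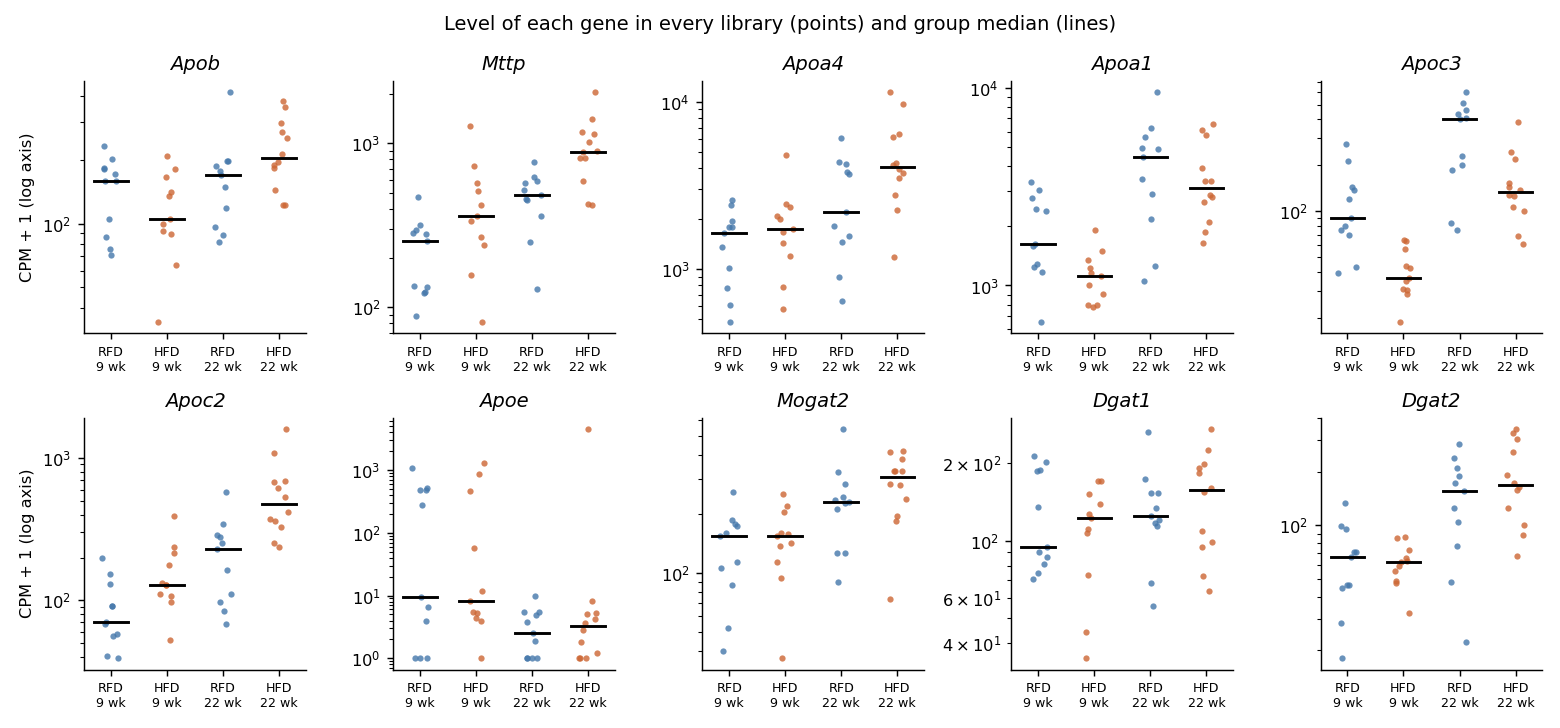
Normalised reads of each gene as CPM + 1 on a log axis in every library, by diet and feeding time (blue, RFD; orange, HFD; 1 point per mouse; black lines, group medians). The Apoc3 points at 9 weeks lie between 18.0 and 63.7 CPM on HFD and between 38.2 and 274 CPM on RFD. Mttp and Apoc2 lie high on HFD at 22 weeks, and Apoe is high in some libraries.

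The diets were compared in edgeR by quasi-likelihood, p-values were adjusted by the Benjamini-Hochberg method over all 14020 genes, and an adjusted p under 0.1 was taken as the threshold. Levels within a gene are given as CPM, reads scaled to library size after TMM normalisation, and differences as log2 fold change of HFD minus RFD with its standard error. At 9 weeks 1 of the 10 genes passed, Apoc3, which was lower on HFD, while 3.32% of all genes passed in either direction and 1.33% were lower. At 22 weeks 2 passed, Mttp and Apoc2, both higher on HFD, against 0.792% of all genes in either direction and 0.435% higher. The median log2 fold change of the 10 genes was -0.07 at 9 weeks and 0.40 at 22 weeks, beside -0.05 and -0.03 over all genes. With 10 members, the single call at 9 weeks is near the background share, and the direction differed from gene to gene. At an unadjusted p under 0.05, 2 members were higher and 2 lower at 9 weeks, when 9.73% of all genes were higher and 8.27% lower (18.0% in all). At 22 weeks 4 were higher and 1 lower, when 4.69% were higher and 5.61% lower (10.3% in all). In bulk RNA, fewer cells that express a gene and less RNA per cell cannot be told apart. The p-values measure the spread between libraries of separate mice. The study housed the mice 4 per cage, and the tests took no account of cages, so mice that shared a cage counted as separate.

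**Figure D2:**
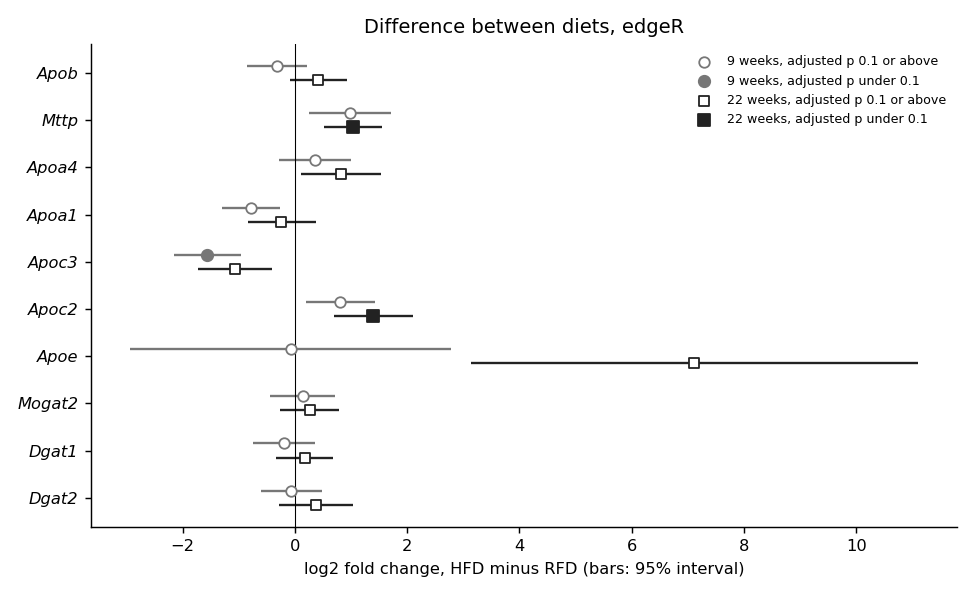
Log2 fold change between the diets (HFD minus RFD) of each gene at 9 weeks (grey circles) and at 22 weeks (black squares), with 95% intervals and filled symbols for an adjusted p under 0.1. Apoc3 lies below 0 at both times (-1.56 and -1.07) and Mttp and Apoc2 lie above 0, while the intervals of Dgat1, Dgat2 and Mogat2 cover 0 and Apoe has the widest intervals.

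Apoc3, the small apolipoprotein known to slow triglyceride clearance by lipoprotein lipase, had the lowest p of the members at 9 weeks. On RFD the 11 libraries ran from 38.2 to 274 CPM with a median of 89.4. On HFD they ran from 18.0 to 63.7 CPM with a median of 35.9. All 11 HFD libraries lay below the RFD median and 6 lay below every RFD library. The log2 fold change was -1.56 ± 0.29 (SE), with an adjusted p of 0.01514 in edgeR. It stayed under the threshold when each of the 22 libraries was left out in turn, with log2 fold changes from -1.67 to -1.35. The mouse numbers fall into 3 series (1 to 8, multiples of 10, and 21 to 24, 31 to 34 or 62 to 64), looked at as possible batches. RFD mouse 84 of the STF set and HFD mouse 65 of the LTF set are in none of them. Within the series the log2 fold change was -1.77, -0.79 and -1.44. Limma on log2(TPM + 1) and on log2(TPM + 0.1) gave -1.54 and -1.55 with adjusted p of 0.1936 and 0.2716.

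At 22 weeks Apoc3 spanned 75.0 to 598 CPM on RFD (median 401) and 60.5 to 385 CPM on HFD (median 132). All 12 HFD libraries lay below the RFD median, and 2 lay below every RFD library. Its log2 fold change was -1.07 ± 0.32 with an adjusted p of 0.167 in edgeR, so the difference did not pass. Within the mouse number series it was -1.31, -0.94 and -0.85. With the series as a term, and without HFD mouse 65, which is in no series, it was -1.21 with an adjusted p of 0.05299. Without RFD mouse 1 or HFD mouse 33 the adjusted p was 0.04888 or 0.06534. DESeq2 and limma-voom also put it under the threshold, with adjusted p of 0.05241 and 0.03822. Over all 14020 genes these settings called 351 and 2504, against 111 in the main test. Apoc3 passed in 3 of 10 alternative settings and in 2 of 23 fits that left out 1 library. RLE factors and no filter gave adjusted p of 0.1655 and 0.1128 in edgeR. Limma on log2(TPM + 1) and on log2(TPM + 0.1) gave 0.3964 and 0.4735.

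Apoa1, the main protein of high density lipoprotein and the neighbour of Apoc3, was the most abundant member in TPM. At 9 weeks it spanned 656 to 3351 CPM on RFD (median 1622) and 781 to 1917 CPM on HFD (median 1117). The groups overlapped, although 10 of 11 HFD libraries lay below the RFD median. The log2 fold change was -0.78 ± 0.25 with an adjusted p of 0.1058 in edgeR, just outside the threshold. DESeq2 gave -0.80 with an adjusted p of 0.01477. At 22 weeks Apoa1 had medians of 4453 CPM on RFD and 3122 CPM on HFD, with a log2 fold change of -0.24 ± 0.30 and an adjusted p of 0.8365.

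Apoa4, the lipid-responsive apolipoprotein on the far side of Apoc3, lay above the RFD level on HFD at 22 weeks without passing the test. At 9 weeks it spanned 484 to 2587 CPM on RFD (median 1633) and 577 to 4786 CPM on HFD (median 1723), with a log2 fold change of 0.36 ± 0.31 and an adjusted p of 0.5758 in edgeR. Without HFD mouse 50, a library under 500000 reads, it was 0.10, and without both libraries under that depth 0.01. At 22 weeks it spanned 647 to 6048 CPM on RFD (median 2196) and 1182 to 11350 CPM on HFD (median 4074). There 11 of 12 HFD libraries lay above the RFD median, and 4 lay above every RFD library. The log2 fold change of 0.83 ± 0.35 had an adjusted p of 0.4135 and did not pass. Within the mouse number series it was 0.75, 0.57 and 1.12.

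The genes that flank these on chromosome 9 did not pass at either time. Sik3, which ends at -4.39 kb relative to the start of Apoa1, had log2 fold changes of -1.24 ± 0.46 at 9 weeks (adjusted p = 0.153 in edgeR) and -0.47 ± 0.43 at 22 weeks. Zpr1, which starts 44.48 kb after the start of Apoa1, had 0.34 ± 0.34 and 0.41 ± 0.37. Apoa5, the last apolipoprotein gene of the cluster, had too few reads to be tested.

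Apoc2, the activator of lipoprotein lipase, lay high on HFD. At 22 weeks the RFD libraries ran from 66.8 to 572 CPM (median 228) and the HFD libraries from 235 to 1592 CPM (median 472). All 12 HFD libraries exceeded the RFD median and 5 exceeded every RFD library. Its log2 fold change was 1.40 ± 0.35 with an adjusted p of 0.0643 in edgeR. This call was narrow. It held without 14 of the 23 libraries in turn, and the adjusted p reached 0.1483 without RFD mouse 10, while the log2 fold change stayed between 1.16 and 1.64. The other libraries whose omission ended it were RFD mice 40, 21, 22 and 24 and HFD mice 65, 32, 33 and 6, the last of which had the lowest tuft marker level of its set (adjusted p = 0.1129 without it). With the mouse number series as a term the log2 fold change was 1.16 and the adjusted p 0.1327 in edgeR. That fit also left out HFD mouse 65, which is in no series. Within the 3 series the log2 fold change was 1.22, 0.78 and 1.89.

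At 9 weeks Apoc2 spanned 38.2 to 198 CPM on RFD (median 69.5) and 51.4 to 387 CPM on HFD (median 128). Of the 11 HFD libraries, 10 lay above the RFD median. The log2 fold change was 0.81 ± 0.30 with an adjusted p of 0.1551 in edgeR, which did not pass. Apoc4, which ends 141 bases upstream of Apoc2, was near the limit of detection, with a median of 0.37 TPM.

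Mttp, the transfer protein that loads lipid onto Apob, differed most clearly at 22 weeks. The RFD libraries ran from 129 to 766 CPM (median 482) and the HFD libraries from 421 to 2044 CPM (median 891). Of the 12 HFD libraries, 9 lay above every RFD library and 10 above the RFD median. Its log2 fold change was 1.04 ± 0.25 with an adjusted p of 0.0614 in edgeR. It was 1.01, 0.85 and 1.09 within the 3 mouse number series. The call was lost without RFD mouse 10, 22 or 24 or HFD mouse 6, 7, 32 or 33, with an adjusted p of at most 0.1424 and a log2 fold change from 0.88 to 1.13 over all omissions.

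At 9 weeks Mttp spanned 86.9 to 470 CPM on RFD (median 254) and 80.8 to 1282 CPM on HFD (median 360). On HFD 4 libraries lay above every RFD library and 1 lay below all of them. The log2 fold change was 0.98 ± 0.35 with an adjusted p of 0.1473 in edgeR, and it was 0.62 without the 2 libraries under 500000 reads. Within the mouse number series it was 1.32, 0.81 and 0.02.

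Apob, the structural protein of the particle, did not pass at either time. At 9 weeks it had medians of 158 CPM on RFD and 104 CPM on HFD, with a log2 fold change of -0.32 ± 0.26. At 22 weeks the medians were 168 and 203 CPM and the log2 fold change 0.42 ± 0.25. The difference between these effects was 0.78 ± 0.37 (unadjusted p = 0.03897, adjusted p = 0.9999 in edgeR), so it did not pass.

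The triglyceride enzymes showed little difference. For Dgat1, which joins the last fatty acid to diacylglycerol, the 95% interval of the log2 fold change ran from -0.75 to 0.35 at 9 weeks and from -0.33 to 0.68 at 22 weeks. For Dgat2, which does the same step in another protein family, the intervals ran from -0.61 to 0.48 and from -0.28 to 1.04. For Mogat2, which makes diacylglycerol from monoacylglycerol, they ran from -0.44 to 0.71 and from -0.26 to 0.79. A doubling of Dgat1 or Mogat2 RNA lay outside these intervals at both times. A doubling of Dgat2 lay outside its interval at 9 weeks and inside it at 22 weeks.

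Apoe, an apolipoprotein that macrophages also make in large amounts, did not behave like the others. At 9 weeks it exceeded 100 TPM in 5 of 11 RFD and 3 of 11 HFD libraries and was at most 13.0 TPM in the rest. At 22 weeks it exceeded 100 TPM in 1 library, that of HFD mouse 31, at 5252 TPM, and reached at most 6.28 TPM in the other 22. The log2 fold changes were -0.07 ± 1.37 at 9 weeks (adjusted p = 0.9873 in edgeR) and 7.11 ± 1.92 at 22 weeks (adjusted p = 0.1275). Without HFD mouse 31 the value at 22 weeks was -0.11 with an adjusted p of 0.9805, so the difference rests on that library. Robust estimation was part of the test, and without it the adjusted p with all libraries was 0.04232.

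The libraries with high Apoe also held macrophage RNA. In the 8 libraries over 100 TPM at 9 weeks the summed TPM of 7 macrophage markers ran from 112 to 632, and in the other 14 it reached at most 18.4. Of the 7 macrophage markers, 4 were higher on HFD at 22 weeks at an unadjusted p under 0.05 (edgeR), and 0 passed. Among all genes 4.69% were higher at that level. The median of the summed marker TPM at 22 weeks was 4.48 on RFD and lower, at 2.48, on HFD. HFD mouse 31 had 2390 TPM of these markers, including 403 of C1qa and 567 of C1qb. The other 22 libraries of its set had at most 89.3. The difference in these markers was not tested without HFD mouse 31. Macrophages lack EpCAM, so the gate on EpCAM should remove them, although they carry CD45, for which the labels give the sorted cells as positive while the study's methods also speak of leaving out cells with CD45. The part of macrophage RNA in the Apoe levels was not tested.

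**Figure D3:**
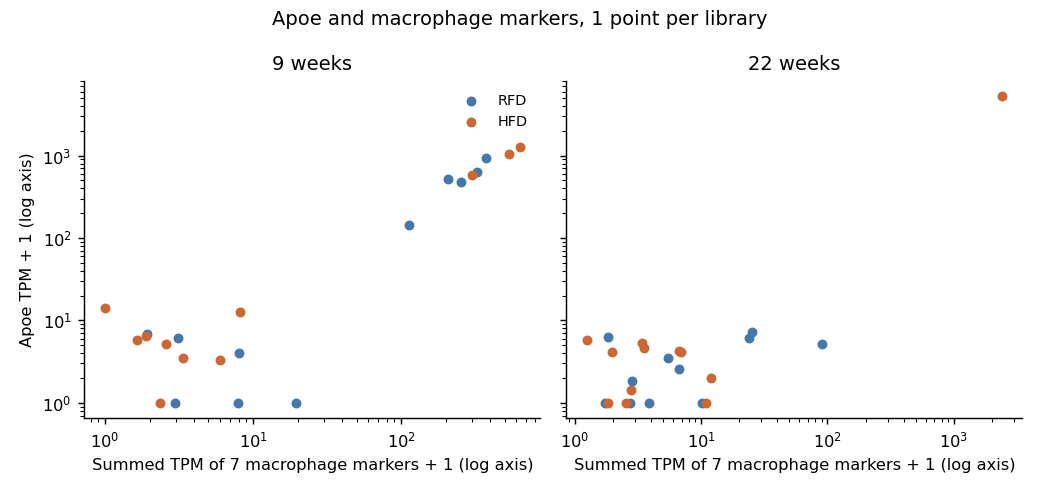
Apoe TPM + 1 against the summed TPM + 1 of 7 macrophage markers, both on log axes, with 1 point per library (blue, RFD; orange, HFD). At 9 weeks 8 libraries with 112 to 632 TPM of markers hold the high Apoe values, and at 22 weeks the single library of HFD mouse 31 does.

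The diet effects at the 2 times were compared directly. For none of the 10 genes did the difference between the effects pass, and none of the 14020 genes did (edgeR), while 451 genes, or 3.22%, had an unadjusted p under 0.05. Apob and Apoe were among the 1.94% with a larger value of HFD minus RFD at 22 weeks, and 1.28% had a smaller value. DESeq2 called none either. The differences in log2 fold change, 22 minus 9 weeks, ran from 0.10 for Mttp to 0.78 for Apob with Apoe left aside, each with a standard error between 0.37 and 0.48.

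Ratios within a library are not changed by scaling to its total and compare genes that the same cells may express. They were chosen after the members' values were seen and are given as a description. On RFD at 9 weeks the ratio of Apoc2 to Apoc3 TPM ran from 0.389 to 0.801 with a median of 0.579. On HFD it ran from 1.24 to 5.12 with a median of 2.49. At 22 weeks it spanned 0.255 to 0.924 on RFD (median 0.486) and 2.03 to 3.20 on HFD (median 2.53). The diets did not overlap at either time, so every RFD library had more Apoc3 than Apoc2 in TPM and every HFD library had more Apoc2 than Apoc3. The highest RFD ratio at 9 weeks, of mouse 40, came from 6 reads of each gene. The highest at 22 weeks, of RFD mouse 40 of the LTF set, came from 114 reads of Apoc2 and 88 of Apoc3. The order there depends on the length correction in TPM.

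The ratio of Apoa4 to Apoc3, which are 5059 bases apart, spanned 1.34 to 3.10 on RFD and 2.95 to 13.7 on HFD at 9 weeks, with medians of 2.13 and 7.25. At 22 weeks it spanned 0.836 to 1.62 on RFD and 2.63 to 9.73 on HFD, with medians of 1.26 and 4.59 and no overlap. The ratio of Apoa4 to Apoa1 had medians of 0.344 (RFD) and 0.734 (HFD) at 9 weeks and of 0.314 and 0.643 at 22 weeks. It exceeded every RFD library in 9 of 11 and 11 of 12 HFD libraries. The ratio of Mttp to Apob overlapped between the diets, with medians of 1.58 and 4.0 at 9 weeks and of 3.20 and 3.87 at 22 weeks.

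**Figure D4:**
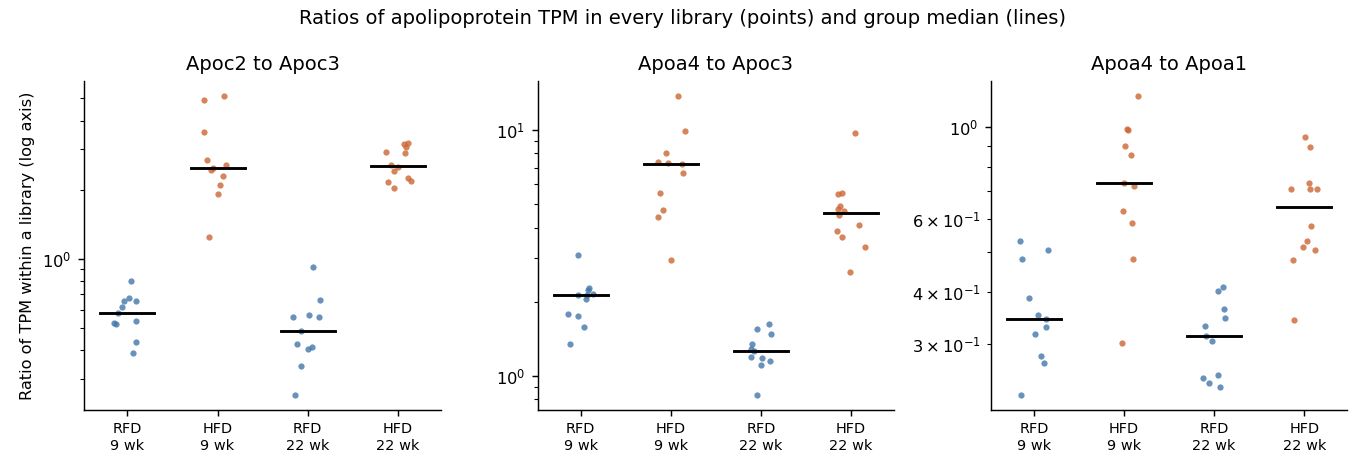
Ratio of TPM within each library on a log axis for Apoc2 to Apoc3, Apoa4 to Apoc3 and Apoa4 to Apoa1, by diet and feeding time (1 point per mouse; lines, group medians). The HFD points for Apoc2 to Apoc3 lie at 1.24 or above and the RFD points at 0.924 or below at both times, without overlap.

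Enterocyte RNA moved with these genes across libraries. The enterocyte level of a library was taken as the mean log2 CPM of 20 markers such as Alpi, Sis and Mep1a, none of them a member. The mean of the members without Apoe correlated with it at Spearman rho of 0.91 at 9 weeks (n = 22) and 0.80 at 22 weeks (n = 23), a description, beside -0.26 and -0.38 for the tuft markers and 0.05 and -0.17 for the Paneth markers. Gene by gene, Apoa1 correlated with the enterocyte level at Pearson's r of 0.71 and Spearman's rho of 0.75 at 9 weeks (permutation p = 0.00026 and 0.00011, adjusted p = 0.000578 and 0.00044). At 22 weeks r and rho were both 0.85 (permutation p = 1e-05, the smallest that the permutations can give, adjusted p = 0.0001). Adjusted values cover 20 relations, 10 genes at 2 times.

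Among the members other than Apoe, r ran from 0.50 (Apoc2, Dgat2) to 0.80 (Mogat2) at 9 weeks and from 0.44 (Apoc2) to 0.85 (Apoa1) at 22 weeks, with adjusted permutation p of at most 0.0385. Spearman's rho had an adjusted permutation p of 0.0533 for Apoc2 at 22 weeks and of at most 0.0405 for the rest of them. Without the 2 libraries farthest from the median enterocyte level, r of these members ran from 0.49 to 0.77 at 9 weeks and from 0.32 (Mttp) to 0.81 at 22 weeks. Within a diet the relation of Apoc2 at 22 weeks was closer, with rho of 0.81 on RFD (n = 11) and 0.77 on HFD (n = 12). Within the mouse number series it was weaker for some genes, for instance 0.52, 0.37 and 0.12 for Apoc2 and 0.05, 0.71 and 0.12 for Mttp at 22 weeks. Apoe at 9 weeks had r of 0.44 and rho of 0.43 (permutation p = 0.0381 and 0.0476, adjusted p = 0.0401 and 0.0529). At 22 weeks it had r of -0.01 and rho of -0.06 (permutation p = 0.966 and 0.782, adjusted p = 0.966 and 0.782).

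**Figure D5:**
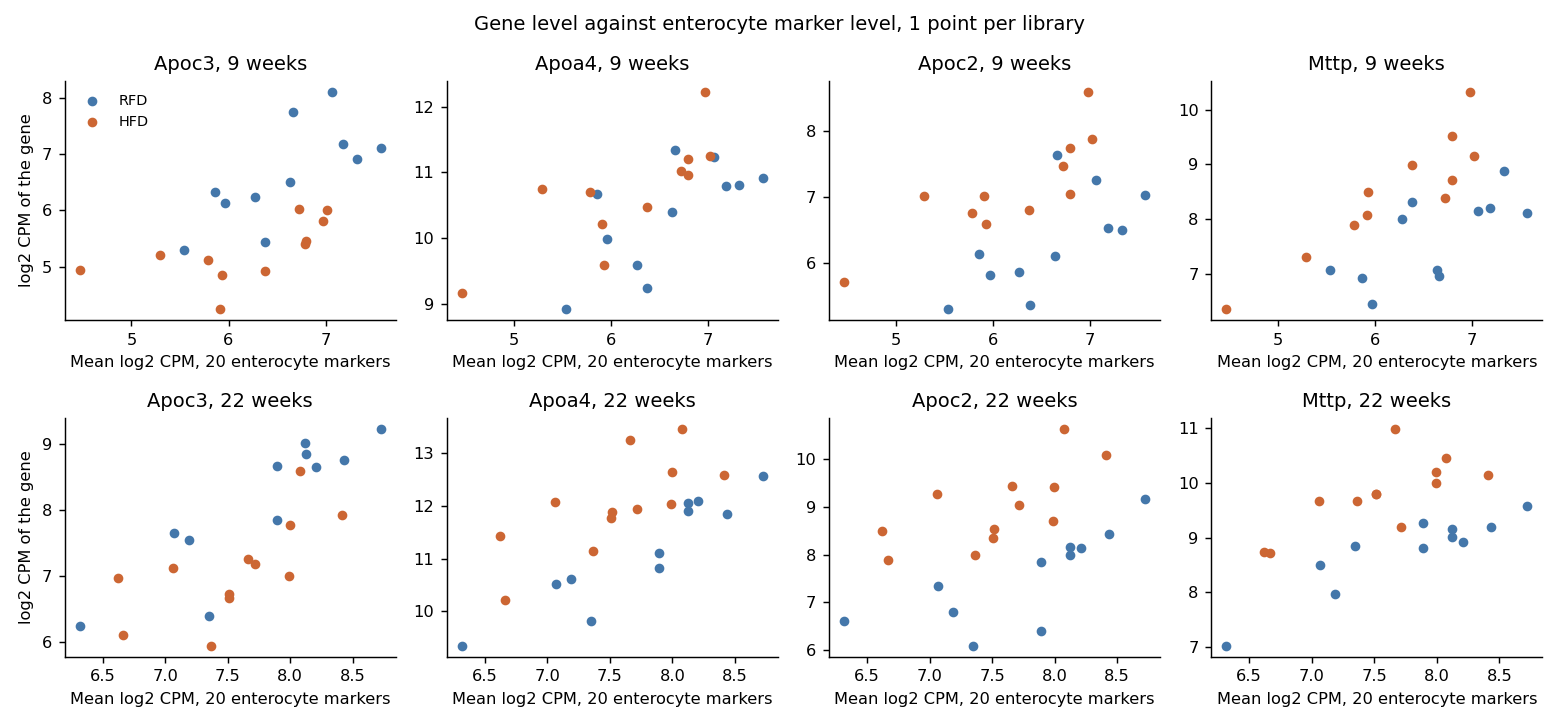
Log2 CPM of Apoc3, Apoa4, Apoc2 and Mttp against the mean log2 CPM of 20 enterocyte markers, at 9 weeks (top) and 22 weeks (bottom), with 1 point per library (blue, RFD; orange, HFD). All rise with the enterocyte level, and at a like level the HFD points tend to lie low for Apoc3 and high for Apoc2 and Mttp.

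The difference in the enterocyte level itself between the diets was within the spread of the libraries when all series were pooled. It was 6.59 ± 0.65 on RFD (SD, n = 11) and 6.19 ± 0.80 on HFD (SD, n = 11) at 9 weeks, a difference of -0.40 (two-sided permutation test, p = 0.217). Within the mouse number series, which the test does not use, the difference was 0.0612, -0.0109 and -1.23, and it was not tested within them. Without the 2 libraries under 500000 reads these values were 0.0612, -0.64 and -1.23. The pooled difference was then -0.58 (two-sided permutation test, p = 0.0778). At 22 weeks the enterocyte level was 7.76 ± 0.70 on RFD (SD, n = 11) and 7.55 ± 0.55 on HFD (SD, n = 12). The difference was -0.21 (two-sided permutation test, p = 0.436), and -0.411, -0.341 and -0.119 within the series. Single markers did change. Mgam, a brush border glucosidase, fell at both times by 1.5 and 1.32 on the log2 scale (adjusted p = 0.02696 and 0.006772 in edgeR). Slc15a1, a peptide transporter, fell at 9 weeks by 1.45 and Slc5a1, the sodium glucose transporter, at 22 weeks by 1.36 (adjusted p = 0.06616 and 0.02327). Rbp2, the enterocyte retinol binding protein, rose at both times by 1.32 and 1.58 (adjusted p = 0.04325 and 0.007554). The counts were 1 higher and 2 lower of 20 at each time, with list medians of -0.39 and -0.42. At an unadjusted p under 0.05 in edgeR, 2 were higher and 6 lower at 9 weeks and 2 higher and 9 lower at 22 weeks. Over all genes 9.73% were higher and 8.27% lower at 9 weeks, and 4.69% higher and 5.61% lower at 22 weeks. Over the tuft markers 0 of 15 passed, with medians of -0.96 and -0.44 and 5 and 3 lower at an unadjusted p under 0.05 in edgeR. Over the 7 Paneth markers 0 passed, with medians of 2.35 and 1.33 and 1 and 0 higher at that unadjusted level. Of 5 stem and cycling markers Olfm4 rose at 9 weeks (2.05 ± 0.59, adjusted p = 0.08481), and of 8 enteroendocrine markers Cck, Gcg and Nts fell at 22 weeks (adjusted p = 0.006203, 0.02793 and 0.0007878). Their part in the results was not tested.

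With the enterocyte level, which itself includes markers that changed with diet, as a covariate, 3 members passed at 9 weeks, when calls over all genes also rose, to 13.2% in either direction and 6.67% higher. Apoc3 lay lower (-1.23, adjusted p = 0.01472 in edgeR) and Apoc2 and Mttp higher (1.13 and 1.3, adjusted p = 0.01137 and 0.004718). With the tuft minus enterocyte marker level as the covariate at 9 weeks, when 3.62% of all genes passed, the values of Apoc2 and Mttp were 0.54 and 0.49 and did not pass (adjusted p = 0.3739 and 0.3251), while Apoc3 was at -1.63 (adjusted p = 0.008775) and Apoa1 at -0.84 (adjusted p = 0.05676). So at 9 weeks the values of Apoc2 and Mttp depended on which marker level was held fixed. At 22 weeks 5 members passed as higher with the enterocyte covariate, against 1.31% of all genes in either direction and 0.870% higher. They were Apoa4 (1.21), Apob, Apoc2 (1.65), Mttp (1.25) and Dgat2, with adjusted p of 0.003814 for Apoa4, 0.0002857 for Apoc2 and 0.0002387 for Mttp. With the tuft minus enterocyte covariate, when 1.52% of all genes passed, Apoc2 (1.38) and Mttp (0.92) passed (adjusted p = 0.03823 and 0.002267) and Apoa4 (0.74) did not (adjusted p = 0.3521). Apoc3, at -1.07 without a covariate, did not pass at 22 weeks with either. It was at -0.73 with the enterocyte covariate (adjusted p = 0.135 in edgeR) and -1.08 with tuft minus enterocyte (adjusted p = 0.1056). The part of enterocyte RNA in the levels of these genes was otherwise not tested, and whether the transcripts come from tuft cells or from enterocytes sorted with them cannot be told apart in these libraries.

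Likeness across the 45 libraries was described after each gene had been centred on its group mean. Genes like the mean of the 10 members included Mme (Spearman rho 0.84), Ggt1 (0.83), Cyp3a13 (0.83) and Rbp2 (0.81), of which Rbp2 is in the enterocyte list. Rbp2 was also the gene most like Apoa1 (0.86), Apoa4 (0.85) and Apoc2 (0.85). Lct was most like Apob (0.87), Ggt1 most like Apoc3 (0.83), Acsl5 most like Mttp (0.87) and Mogat2 (0.87), Hnf4g most like Dgat1 (0.84) and Mpp1 most like Dgat2 (0.71). The gene most like Apoe was C1qb (0.87), a complement gene of macrophages. Among the members without Apoe the 36 pairs had rho from 0.34 to 0.93 with a median of 0.63, while Apoe had a median of 0.05 with the other 9. These libraries share depth and cell makeup, so the values carry no test.

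Other genes of the pathway were followed as lists. Over all genes 2.00% passed as higher at 9 weeks and 0.435% at 22 weeks (edgeR). At an unadjusted p under 0.05, 9.73% were higher and 8.27% lower at 9 weeks, and 4.69% and 5.61% at 22 weeks. Of 16 genes of secretion and COPII transport, 15 were tested and 1 rose at each time. This was P4hb, protein disulfide isomerase and the small subunit of the Mttp complex, whose mean went from 788 to 1350 CPM at 9 weeks (log2 fold change 0.78 ± 0.24, adjusted p = 0.09508 in edgeR) and from 1146 to 2085 CPM at 22 weeks (0.86 ± 0.19, adjusted p = 0.02604). The list median was 0.30 and 0.35, and at an unadjusted p under 0.05 there were 3 genes higher at 9 weeks and 6 higher and 1 lower at 22 weeks. Sar1b, the COPII GTPase needed for chylomicron exit, had values of 0.30 ± 0.30 and 0.42 ± 0.18, and Surf4, a cargo receptor, 0.39 ± 0.20 and 0.50 ± 0.16, and neither passed.

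Of 6 lipid droplet genes 1 rose at each time, Plin2, the coat protein of lipid droplets, from a mean of 60.0 to 116 CPM at 9 weeks (0.94 ± 0.23, adjusted p = 0.05192 in edgeR) and from 54.5 to 152 CPM at 22 weeks (1.48 ± 0.35, adjusted p = 0.04922). At an unadjusted p under 0.05, 1 droplet gene was higher and 1 lower at 9 weeks and 4 were higher at 22 weeks. The shares over all genes at that level were 9.73% higher and 8.27% lower at 9 weeks and 4.69% and 5.61% at 22 weeks. Of 6 genes of uptake and intracellular binding 0 passed at 9 weeks (edgeR), with 2 higher and 1 lower at an unadjusted p under 0.05. At 22 weeks 1 rose, Cd36, a fatty acid transporter, from 14.3 to 58.0 CPM (2.03 ± 0.42, adjusted p = 0.02148), and 2 were higher and 1 lower at an unadjusted p under 0.05. Fabp2, the intestinal fatty acid binding protein, had 1.29 ± 0.52 and 1.19 ± 0.36, and Fabp1 had -0.18 ± 0.28 and -0.06 ± 0.21, and neither passed.

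The remaining lists held no gene that passed in edgeR. Their counts stand beside 9.73% of all genes higher and 8.27% lower at an unadjusted p under 0.05 at 9 weeks. At 22 weeks these shares were 4.69% and 5.61%. In the 11 tested genes of other triglyceride and cholesterol ester synthesis, 1 was higher and 1 lower at an unadjusted p under 0.05 at 9 weeks and 1 higher at 22 weeks. Acsl5, an acyl-CoA synthetase, had log2 fold changes of 0.58 ± 0.28 and 0.79 ± 0.25. Of 10 regulators, 2 at 9 weeks and 3 at 22 weeks were higher, and 1 at 22 weeks lower, at an unadjusted p under 0.05. Hnf4a, a nuclear receptor that binds many intestinal promoters, had 0.14 ± 0.21 and 0.19 ± 0.26, and Hnf4g, its paralogue, had 0.98 ± 0.39 and 0.85 ± 0.27. Among 4 tested receptor genes, 0 at 9 weeks and 1 at 22 weeks were higher at that level. Of 8 other apolipoprotein genes only Apoc4 and Apod had enough reads to be tested, and neither passed or had an unadjusted p under 0.05.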

How the data were processed

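The authors trimmed reads with Cutadapt 1.15, aligned them with STAR 2.6.0 to GRCm38 and counted them per gene with RSEM, per the labels, and no version of RSEM is given in the sources used here. The deposited estimated counts (8.79% of those above 0 not whole) were rounded, and the deposited TPM values were used for comparing levels between genes. The count tables hold 24 columns that match none of the samples, and these were not used. Genes with more than 5 reads in at least 6 of 45 libraries were kept and 19 with a shared symbol removed. Each set was normalised by TMM and tested with edgeR 4.0.16 (robust quasi-likelihood, R 4.3.3). The authors' weighing of counts by cell proportions was not repeated. Nor was their removal of non-tuft marker genes and of further genes they judged not to be expressed in tuft cells. Alternatives used DESeq2 1.42.0 and limma 3.58.1. CPM in plots has 1 added, and log2 CPM has a prior count of 2. Permutation tests used 100000 resamples. The test was checked on simulated counts. Mouse numbers fall in 3 series (1 to 8, multiples of 10, and 21 to 24, 31 to 34 or 62 to 64), and the labels do not tie them to days. RFD mouse 84 of the STF set and HFD mouse 65 of the LTF set are in no series. Fits with the series as a term left these mice out. The depth, 189340 to 4690213 reads, limits the precision for low genes. All 10 members were named, pathway genes were named where called or as examples, and likeness was ranked by Spearman rho. The members and lists were chosen with earlier results of these data known. The deposited FPKM tables were not used. A result of the likeness ranking is not reported here.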

Additional observations from a re-analysis of the deposited data

How the results depend on the processing

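No paired analysis was possible because the diets share no mouse numbers within a set. The low total setting does not apply at 22 weeks, where no library was under 500000 reads. With 11 or 12 mice a group and 189340 to 4690213 reads, small differences and genes of few reads were not detectable. At 9 weeks, where 1 member passed, 2 passed with RLE factors, with low totals left out and with the tuft minus enterocyte covariate, 3 with the enterocyte covariate, 4 with DESeq2, limma-voom and no filter, and 0 with limma on log2(TPM + 1) or log2(TPM + 0.1). Of 14020 genes tested, 466 passed in the main test, 480 with RLE factors, 1534 in DESeq2 and 4210 in limma-voom. The TPM settings gave 11 and 5, and low totals left out gave 290. The enterocyte covariate gave 1853 and tuft minus enterocyte 507. Without a filter 1698 of 32549 genes passed. At 22 weeks, where 2 members passed, 3 passed with DESeq2, with no filter and without robust estimation (Apoc3 joined in DESeq2, Apoe in the other settings), 4 with limma-voom, 5 with the enterocyte covariate, and 0 with either TPM setting or at an adjusted p under 0.05. Over all 14020 genes it was 111, and 351, 2504, 54 and 35 in DESeq2, limma-voom and the TPM settings. It was 183 with the enterocyte covariate, 185 with the number series and 213 with the tuft minus enterocyte covariate. Without robust estimation it was 102, and without a filter 435 of 34543 genes. Leaving out each library gave 1 to 4 members at 9 weeks and 0 to 4 at 22 weeks. The counts over all genes in those fits are not given here. The highest count of members at 9 weeks was without HFD mouse 64, and at 22 weeks without RFD mouse 1. The interaction had 0 members in every setting and 0 to 0 without each library. Over all genes, 65 of 35907 passed without a filter and 1 of 14020 without robust estimation. The enterocyte level difference at 22 weeks was 0.15 without the sugar genes in place of -0.21, and at 9 weeks it was -0.04, -0.52 and -0.58 without those genes, on log2(TPM + 1) and without low totals. Without each library it ran from -0.50 to -0.23 at 9 weeks and from -0.35 to -0.11 at 22 weeks. Signs turned only in members that did not pass. Apoe at 9 weeks (-0.07) was 0.18 on log2(TPM + 0.1), 0.11 with the tuft minus enterocyte covariate and from -0.89 to 0.47 without each library, and at 22 weeks -0.15 in DESeq2 and from -0.11 (without HFD mouse 31) to 7.51 without each library. Dgat1 at 9 weeks was 0.05 with limma-voom and 0.10 with the enterocyte covariate. Dgat2 at 9 weeks was 0.12 with limma-voom, 0.01 with the number series, 0.23 with the enterocyte covariate, and 0.01 to 0.06 without RFD mouse 84, 10 or 22 or HFD mouse 64. Mogat2 at 9 weeks was 0.00 with the number series, -0.01 without low totals and -0.17 with the tuft minus enterocyte covariate. Apoa1 at 22 weeks was 0.08 with the enterocyte covariate. The setting without robust estimation was added after seeing the data. The cause was not tested for any of these changes.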
